A study of Homo sapiens with 18 samples.

Results

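The negative feedback arm of MAP kinase signalling was followed through 10 genes: the dual-specificity phosphatases DUSP4, DUSP5, DUSP6, DUSP8 and DUSP10, the Sprouty genes SPRY1, SPRY2 and SPRY4, and the Sprouty-related genes SPRED1 and SPRED2. They were taken from a list by symbol after the Ensembl identifiers of the count tables had been matched to GENCODE 44, and all 10 were found among the 58825 genes of the tables. OVCAR-3, an established high-grade serous ovarian carcinoma (HGSC) cell line, was kept in stripped medium in 12-well plates and exposed for 4 or 24 h to DMSO, to 1 µM i-BET858 or to 1 µM i-BET151, both of which inhibit the bromodomain proteins of the BET family. This gave 6 groups of 3 RNA-seq libraries, and the DMSO groups share the line, the medium, the plates and the RNA extraction with the treated ones. A single tumour line was used, so the values describe OVCAR-3 and no other HGSC cell. The study calls the 3 replicates biological, whereas the sample labels do not say whether they came from separate cultures, so the p-values measure the spread between these libraries, which may be technical.

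ERK, JNK and p38 are the kinases at the end of the MAP kinase cascades, and they are switched off when a dual-specificity phosphatase removes the phosphate groups from both the threonine and the tyrosine of their activation loop. Many of these phosphatases are themselves transcribed in response to MAP kinase activity, which closes a feedback loop. Sprouty and Spred proteins act further up, between growth factor receptors and RAF, where they dampen the activation of RAS and ERK. In ovarian carcinoma, as in other epithelial tumours, the messages of several of these genes are used as a reading of ERK pathway output.

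Library totals lay between 27323969 and 46299994 counts (median 32267434). The 10 genes had between 49 and 2440 counts in a library, well above the 3 counts that a gene with a count of 0 could hide, which correspond to 0.0648 to 0.110 CPM, the unit of counts scaled to library size. This limit covers counting error only. Libraries of replicate 3 stood apart in every group, with 17817 to 20642 genes that had any count against 23674 to 24947 in replicates 1 and 2. Libraries that shared a replicate number also deviated together. Each main test was nonetheless run without the number as a block and leaves this out of account. The blocked value is added where it changes the call of a member or the counts given for a list. All 8 markers of serous epithelium were present in every library, with PAX8, the Müllerian lineage transcription factor, at 387 to 612 CPM. Of 11 markers of fibroblasts, leukocytes and endothelium, COL1A1 reached 21.1 to 46.7 CPM and VWF 0.548 to 4.88 CPM, COL1A2 was at 0.175 to 3.62 CPM, and the other 8, among them the defining genes PTPRC, CD3E, DCN and PECAM1, lay at 0 in at least 3 libraries each. The summed level of these 11 markers was 25.5 to 46.9 CPM in DMSO at 4 h, 33.6 to 52.1 CPM with i-BET858 and 29.3 to 56.2 CPM with i-BET151, and at 24 h it was 31.3 to 39.7, 23.1 to 34.3 and 24.4 to 31.5 CPM. The summed level of the epithelial markers went from 8437 to 9929 CPM in DMSO at 4 h to 11339 to 11936 CPM with i-BET858, whilst 9522 to 10113 CPM with i-BET151 overlapped DMSO, and from 8494 to 9994 CPM in DMSO at 24 h to 6621 to 7015 CPM with i-BET858 and 6648 to 7171 CPM with i-BET151, and its part in the results below was not tested. KRT8 weighed most in this sum, with means of 5439 CPM in DMSO and 7136 CPM with i-BET858 at 4 h, and 5619 and 4119 CPM at 24 h. The 8 markers did not move together. With i-BET858 at 24 h, 1 was called higher and 3 lower in edgeR (20.5% and 21.3% of all genes). CDH1 rose 2.11-fold, whilst KRT18 fell 2.57-fold and KRT7 1.76-fold. In such bulk libraries, fewer cells of a kind and less RNA per cell cannot be told apart.

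Without inhibitor, DUSP5, SPRED2, SPRY2 and SPRY1 led the order per length of exon at 4 h. In DMSO at 4 h, the mean level was 9.72 CPM per kilobase for DUSP5, 8.02 for SPRED2, 6.21 for SPRY2, 5.74 for SPRY1, 4.30 for DUSP10, 4.09 for SPRED1, 2.11 for DUSP6, 1.64 for SPRY4, 1.55 for DUSP8 and 1.10 for DUSP4. The 3 libraries of neighbours in this order overlapped except between SPRY1 and DUSP10 and between SPRED1 and DUSP6. With i-BET858 for 4 h, DUSP5 stood first at 27.9 ± 4.21 CPM per kilobase (SD, n = 3) and DUSP10 second at 9.32 ± 0.754, neither overlapping the next gene in the order. SPRY1, at 1.47 ± 0.333, and DUSP8, at 0.425 ± 0.0692, then stood last on the same scale, and neither overlapped its neighbours. With i-BET151 for 4 h, DUSP5 (18 CPM per kilobase) and DUSP10 (5.88) again stood first and second and DUSP8 (0.744) last. At 24 h DUSP5 led in both inhibitor groups, at 10.3 CPM per kilobase with i-BET858 and 9.24 with i-BET151, whilst SPRED2 (6.84) and DUSP5 (6.06) overlapped at the top in DMSO.

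**Figure D1:**
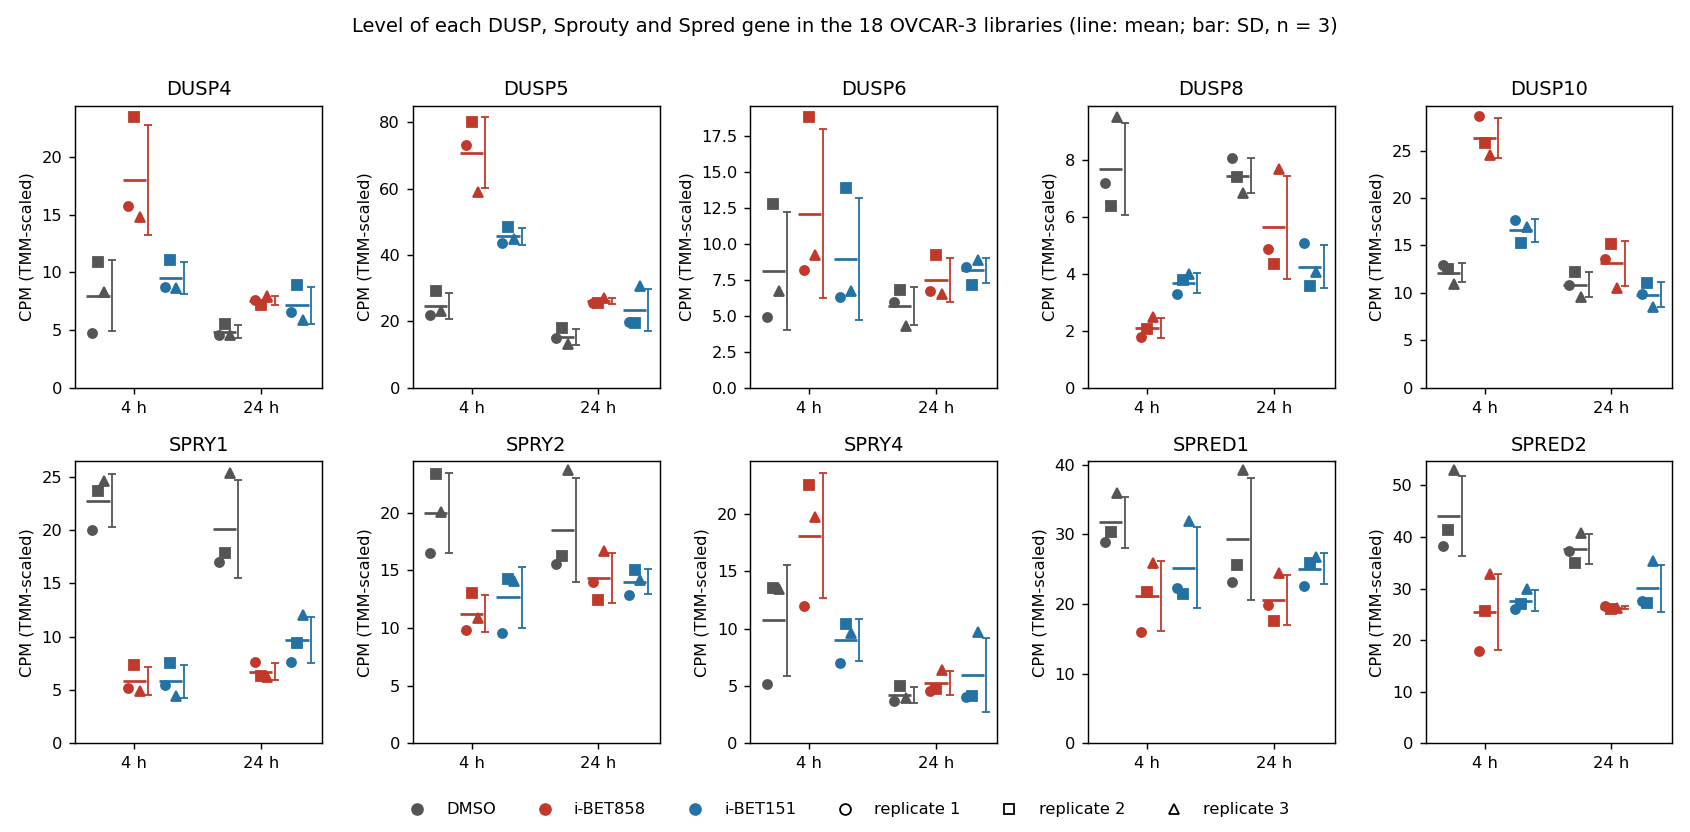
Level of each gene in CPM (vertical axis, scaled with TMM factors) in the 18 libraries by time point, with 1 symbol shape for each replicate, a line at the mean and a bar for the SD (n = 3). DUSP5 and DUSP10 stand highest with i-BET858 at 4 h, SPRY1 lies lower in both inhibitor groups than in DMSO at both time points, and replicate 2 stands apart in DUSP6 at 4 h.

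After 4 h of i-BET858, 7 of the 10 genes changed in edgeR's quasi-likelihood test at a Benjamini-Hochberg adjusted p under 0.05 over all genes, where 30.8% of all 17192 genes tested were called. DUSP4, DUSP5 and DUSP10 were up-regulated, against 14.5% of all genes, and DUSP8, SPRY1, SPRY2 and SPRED2 were down-regulated, against 16.3%. With i-BET151 at the same dose and time, DUSP5 was up-regulated (7.81% of all genes) and DUSP8, SPRY1 and SPRED2 were down-regulated (8.43%), 4 of 10 where 16.2% of all genes were called. After 24 h, DUSP4 and DUSP5 were up-regulated (20.5% of all genes) and SPRY1 and SPRED2 down-regulated (21.3%) with i-BET858, 4 of 10 against 41.7% of all 17157 genes tested. With i-BET151 for 24 h, DUSP5 was up-regulated (17.2% of all genes) and DUSP8 and SPRY1 down-regulated (16.6%), 3 of 10 against 33.8% of all genes. Of the genes called, 5 and 2 also changed at least 2-fold at 4 h with i-BET858 and i-BET151 (14.1% and 7.10% of all genes), and 1 and 1 at 24 h (18.8% and 13.7%). The shares at 24 h were thus near the background, and both comparisons of a time point use the same DMSO libraries, so they are not independent of each other. At 4 h the median log2 fold change of the 10 genes was -0.0021 for i-BET858 and -0.29 for i-BET151, beside 0.023 and 0.0082 over all genes tested, and at 24 h it was -0.089 and -0.21, beside -0.012 and 0.0046.

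With the replicate number as a block, the counts of genes called were 10 of 10 with i-BET858 at 4 h (5 up, 5 down; 45.4% of all genes), 7 of 10 with i-BET151 at 4 h (2 up, 5 down; 32.7%), 6 of 10 with i-BET858 at 24 h (2 up, 4 down; 52.0%) and 7 of 10 with i-BET151 at 24 h (3 up, 4 down; 45.9%). At 4 h, 8 of the 10 genes had no overlap between i-BET858 and DMSO libraries, as did 43.0% of 18154 genes, and 6 had none between i-BET151 and DMSO, as did 35.5%. At 24 h these numbers were 4 of 10 for i-BET858 (53.5% of all genes) and 6 of 10 for i-BET151 (47.5%).

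**Figure D2:**
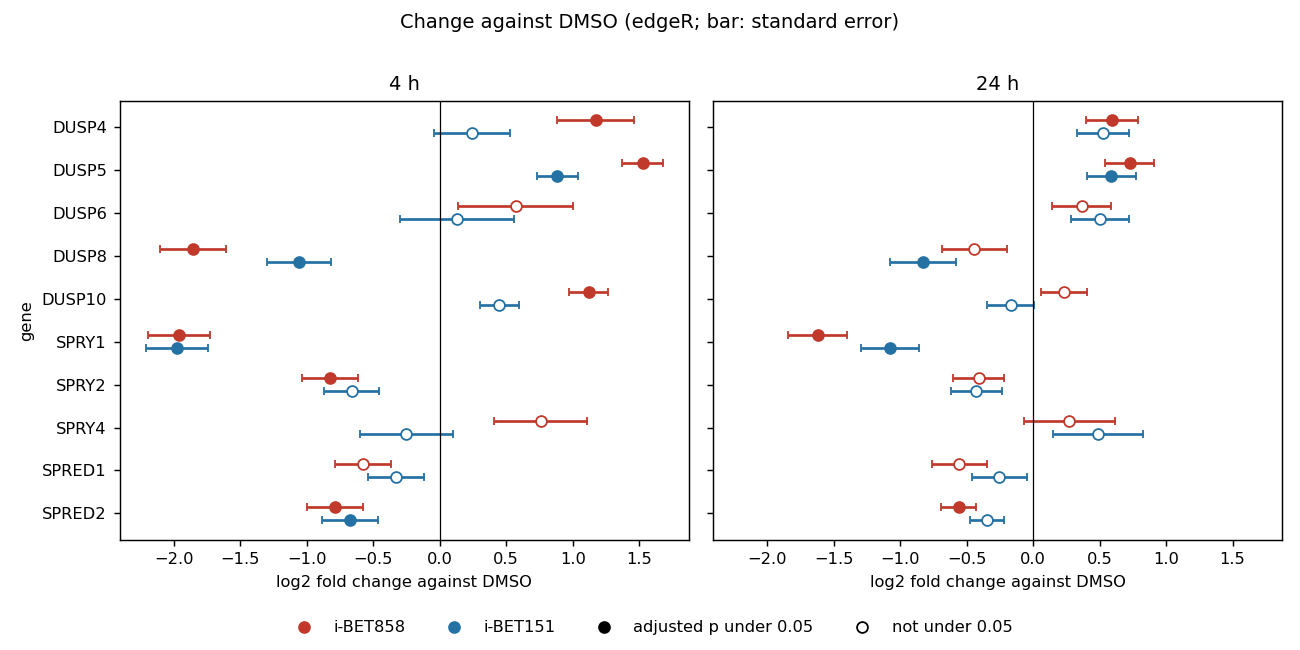
Change of each gene against DMSO of the same time point as log2 fold change from edgeR (horizontal axis; bars are standard errors, 3 libraries a group), with filled symbols for an adjusted p under 0.05. SPRY1 lies left of 0 in all 4 comparisons and DUSP5 right of 0, both filled throughout, whilst at 4 h DUSP4 and DUSP10 are filled with i-BET858 and open with i-BET151.

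DUSP5, an inducible nuclear phosphatase that is selective for ERK, was the member up-regulated in all 4 comparisons. DUSP5 (ENSG00000138166, chr10:110497907-110511533 on the plus strand of GRCh38) stood at 21.8, 29.0 and 23.1 CPM in the 3 DMSO libraries at 4 h. With i-BET858 it stood at 73.2, 80.1 and 59.1 CPM, and with i-BET151 at 43.5, 48.5 and 44.8 CPM. The 3 groups did not overlap, with i-BET151 between DMSO and i-BET858. The rise was 2.88-fold with i-BET858 (log2 fold change 1.52 ± 0.16 SE, edgeR adjusted p = 3.25e-05) and 1.85-fold with i-BET151 (0.88 ± 0.15, edgeR adjusted p = 0.0027). At 24 h the libraries held 15.0, 18 and 13.1 CPM in DMSO, 25.7, 25.5 and 27.1 CPM with i-BET858 and 20.0, 19.7 and 30.6 CPM with i-BET151. Both inhibitor groups still lay above DMSO without overlap, but they overlapped each other, since replicate 3 of i-BET151 was the highest library of all. DUSP5 was 1.65-fold higher with i-BET858 (0.73 ± 0.19, edgeR adjusted p = 0.0095) and 1.5-fold higher with i-BET151 (0.59 ± 0.19, edgeR adjusted p = 0.032). The i-BET151 call at 24 h was lost when replicate 3 of i-BET151 was left out (0.34, the lowest of the fits without 1 library) and when all libraries of replicate 3 were left out (0.23, edgeR adjusted p = 0.10). It was also lost without replicate 1 or 3 of DMSO or replicate 1 of i-BET858. The edgeR adjusted p over the fits without 1 library ran from 0.029 to 0.11.

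DUSP4, a nuclear phosphatase induced by growth factors that acts on ERK and JNK, moved in the same direction as DUSP5 with i-BET858. DUSP4 (ENSG00000120875) stood at 4.76, 10.9 and 8.34 CPM in DMSO at 4 h, at 15.8, 23.5 and 14.8 CPM with i-BET858 and at 8.72, 11.1 and 8.68 CPM with i-BET151. All i-BET858 libraries were above all DMSO libraries, whereas i-BET151 overlapped DMSO. The i-BET858 rise was 2.26-fold (1.17 ± 0.29, edgeR adjusted p = 0.0093), and the i-BET151 difference was 0.24 ± 0.29 on the log2 scale (edgeR adjusted p = 0.63). At 24 h DUSP4 stood at 4.57, 5.52 and 4.55 CPM in DMSO, at 7.58, 7.20 and 7.93 CPM with i-BET858 and at 6.62, 8.91 and 5.91 CPM with i-BET151. Neither inhibitor group overlapped DMSO. The rise with i-BET858 was 1.51-fold (0.59 ± 0.19, edgeR adjusted p = 0.030). This call was lost in 5 of the 9 fits without 1 library, those without replicate 1 or 3 of DMSO and those without replicate 1, 2 or 3 of i-BET858, where the adjusted p reached 0.099. For i-BET151 the difference of 0.53 ± 0.19 had an edgeR adjusted p of 0.059, and 0.032 with the replicate block.

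DUSP6, a cytoplasmic phosphatase that is selective for ERK and one of the commonest readings of ERK activity, had the largest SD relative to its mean of the 10 genes in all 3 groups at 4 h. Its gene lies at chr12:89347235-89352501 on the minus strand (ENSG00000139318), and it stood at 4.94, 12.8 and 6.74 CPM in DMSO, at 8.21, 18.8 and 9.20 CPM with i-BET858 and at 6.32, 13.9 and 6.74 CPM with i-BET151. Replicate 2 held the highest level in each of the 3 groups, so the groups overlapped, although each i-BET858 library was above the DMSO library of its own number. The i-BET858 difference of 0.57 ± 0.43 on the log2 scale did not pass the test (edgeR adjusted p = 0.36) but did with the replicate block (0.58 ± 0.15, edgeR adjusted p = 0.0066). Without 1 library it ran from 0.097, without replicate 2 of i-BET858, to 1.04, without replicate 2 of DMSO, and passed in none of these fits. With i-BET151 it was 0.13 ± 0.43 (edgeR adjusted p = 0.88). At 24 h DUSP6 stood at 5.97, 6.80 and 4.27 CPM in DMSO, at 6.75, 9.25 and 6.49 CPM with i-BET858 and at 8.40, 7.18 and 8.91 CPM with i-BET151. The i-BET151 libraries all exceeded the DMSO ones, whilst i-BET858 overlapped them. Without the block neither difference passed (0.36 ± 0.22 with i-BET858, edgeR adjusted p = 0.22, and 0.50 ± 0.22 with i-BET151, edgeR adjusted p = 0.10), and with it i-BET151 did (edgeR adjusted p = 0.047). An antisense gene overlaps an exon of DUSP6 and held 30 counts in all 18 libraries together, against 5081 for DUSP6. The strand setting of the counting is not given in the sources used here, so reads of the pair cannot be told apart. Pseudogene copies of other members held few counts in the 18 libraries together, 18 for DUSP5P1 and 54 for DUSP5P2 against 20264 for DUSP5, and 4 for DUSP8P1 and 310 for DUSP8P5 against 3135 for DUSP8, and reads that fit both a gene and its copy may be missing from either.

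**Figure D3:**
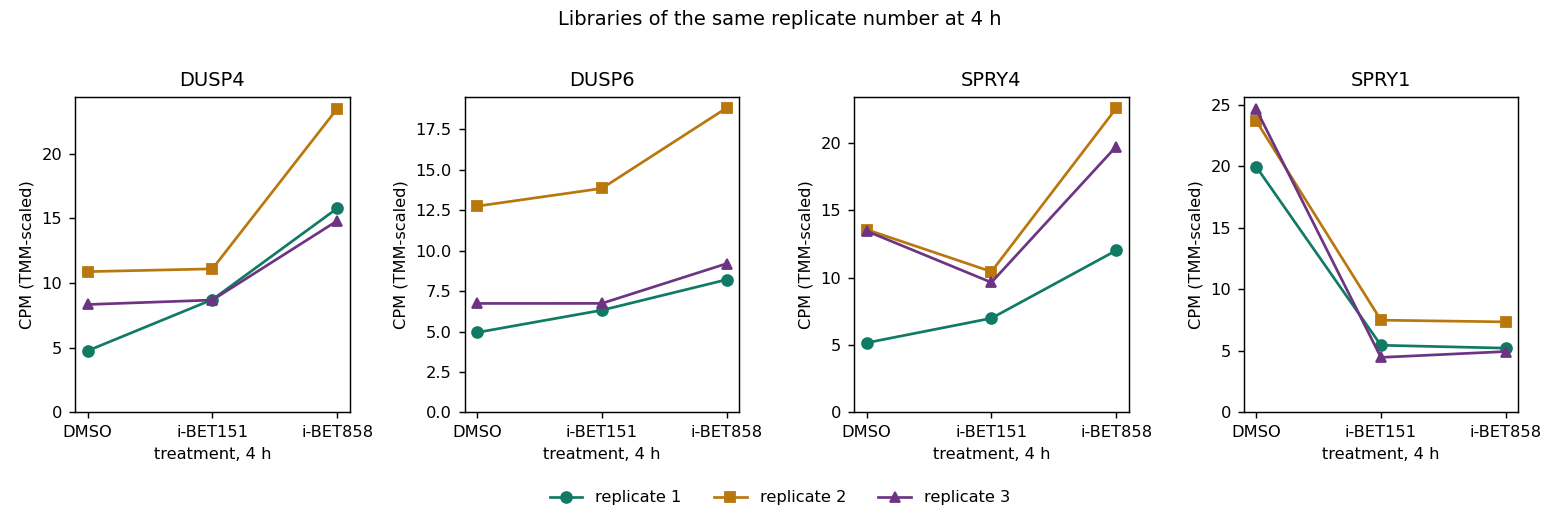
Levels of DUSP4, DUSP6, SPRY4 and SPRY1 at 4 h in CPM (vertical axis), with lines joining libraries of the same replicate number across DMSO, i-BET151 and i-BET858. In DUSP6 the lines of replicates 1, 2 and 3 run side by side, with replicate 2 highest throughout, whereas in SPRY1 every line drops from between 20.0 and 24.6 CPM in DMSO to between 4.47 and 7.49 CPM in both inhibitor groups.

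DUSP8 and DUSP10 are phosphatases with a preference for JNK and p38 over ERK, and with i-BET858 for 4 h they moved in opposite directions. The promoter of DUSP8 is shown because it is the only one of the members' promoters that holds a cyclic AMP response element, and that of DUSP10, at the upstream one of its 2 start sites in the table, beside it as that of the member that rose. None of the motifs searched was found at either DUSP10 start site, as at 10 of the 13 start sites of members. Both are the 250 bases before the start site of RefSeq on GRCh38.p14, minus strand, at chr11:1572272-1572521 for DUSP8 and chr1:221742090-221742339 for DUSP10, and capitals mark the response element TGACGTCA.
DUSP8: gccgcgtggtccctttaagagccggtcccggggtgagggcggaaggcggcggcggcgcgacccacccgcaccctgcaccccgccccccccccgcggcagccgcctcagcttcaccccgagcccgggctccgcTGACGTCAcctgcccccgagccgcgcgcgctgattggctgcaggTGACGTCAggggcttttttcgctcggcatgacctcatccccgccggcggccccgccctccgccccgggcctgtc
DUSP10: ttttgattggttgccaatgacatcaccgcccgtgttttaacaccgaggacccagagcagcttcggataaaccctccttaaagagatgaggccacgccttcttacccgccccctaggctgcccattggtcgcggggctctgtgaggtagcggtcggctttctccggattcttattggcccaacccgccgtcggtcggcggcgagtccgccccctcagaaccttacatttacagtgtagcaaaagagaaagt
The DUSP8 element lies at positions -118 to -111 and again at -74 to -67 from the start site. It was found on either strand in 1.65% of 35116 promoters of that length, and 0.0541% held it 2 or more times. The other motifs searched on both strands were the AP-1 site TGANTCA (6.57% of promoters), the ETS site CCGGAAG (8.52%), the E-box CACGTG (6.34%) and the TATA box TATAAA (10.7%). The table had 13 start sites for 8 of the 10 members, not DUSP4 and DUSP5, and 3 of these start sites held a motif. A match describes the letters and shows no binding.

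DUSP8 (ENSG00000184545, chr11:1554051-1572271, minus strand) was the lowest of the 10 genes with i-BET858 at 4 h. It stood at 7.19, 6.39 and 9.50 CPM in DMSO, at 1.79, 2.07 and 2.47 CPM with i-BET858 and at 3.30, 3.78 and 3.99 CPM with i-BET151, from 49 to 303 counts. The 3 groups did not overlap. DUSP8 fell 3.62-fold with i-BET858 (-1.86 ± 0.25, edgeR adjusted p = 0.00021) and 2.08-fold with i-BET151 (-1.06 ± 0.24, edgeR adjusted p = 0.012). The i-BET151 call was lost without replicate 3 of DMSO or replicate 1 of i-BET151, with an adjusted p of up to 0.058. At 24 h DUSP8 stood at 8.06, 7.41 and 6.85 CPM in DMSO, at 4.88, 4.33 and 7.69 CPM with i-BET858 and at 5.08, 3.59 and 4.08 CPM with i-BET151. Replicate 3 of i-BET858 lay within the DMSO range, whereas all i-BET151 libraries lay below it. The i-BET151 fall was 1.77-fold (-0.83 ± 0.25, edgeR adjusted p = 0.024) and was lost in 4 fits without 1 library, those without replicate 1 or 2 of DMSO and replicate 2 or 3 of i-BET151, with an adjusted p of up to 0.098. The i-BET858 difference was -0.44 ± 0.24 (edgeR adjusted p = 0.18), and -0.71 without replicate 3 of i-BET858 (edgeR adjusted p = 0.027).

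DUSP10 (ENSG00000143507, chr1:221701424-221742089, minus strand) stood at 12.9, 12.6 and 11 CPM in DMSO at 4 h, at 28.7, 25.8 and 24.5 CPM with i-BET858 and at 17.6, 15.3 and 16.9 CPM with i-BET151. The 3 groups did not overlap, and i-BET151 lay in between. The rise with i-BET858 was 2.17-fold (1.12 ± 0.15, edgeR adjusted p = 0.00018). For i-BET151 the difference of 0.45 ± 0.15 had an edgeR adjusted p of 0.059, and 0.013 with the replicate block. At 24 h DUSP10 stood at 10.9, 12.2 and 9.62 CPM in DMSO, at 13.6, 15.2 and 10.6 CPM with i-BET858 and at 9.89, 11.1 and 8.53 CPM with i-BET151. All groups overlapped. Neither the i-BET858 difference (0.23 ± 0.18, edgeR adjusted p = 0.32) nor the i-BET151 difference (-0.17 ± 0.18, edgeR adjusted p = 0.51) passed the test.

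SPRY1 encodes a Sprouty protein that restrains signalling from fibroblast growth factor and other receptors to RAS, and it had the lowest fitted log2 fold change of the 10 genes in each of the 4 comparisons with DMSO. With i-BET858 at 4 h that of DUSP8 lay within 1 SE of it, and without the libraries of replicate 3 DUSP8 was the lower (-1.81 against -1.79). With i-BET151 at 24 h DUSP8 was the lower without replicate 3 of DMSO (-0.86 against -0.85) and without replicate 1 of i-BET151 (-0.98 against -0.93). Of its pair of start sites in the table, the 250 bases before the downstream one (RefSeq, GRCh38.p14, chr4:123398136-123398385, plus strand) are shown, with the ETS site CCGGAAG at positions -67 to -61 in capitals, since ETS proteins are classic ERK targets. The upstream start site held none of the motifs searched, and 8.52% of all promoters held this ETS site. Its part in the fall of SPRY1 was not tested.
SPRY1: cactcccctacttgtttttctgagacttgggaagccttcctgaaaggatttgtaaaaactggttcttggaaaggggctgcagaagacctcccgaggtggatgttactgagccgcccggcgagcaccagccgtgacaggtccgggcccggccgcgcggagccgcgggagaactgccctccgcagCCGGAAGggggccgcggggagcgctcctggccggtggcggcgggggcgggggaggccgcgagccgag
SPRY1 (ENSG00000164056, chr4:123396795-123403760) stood at 20.0, 23.7 and 24.6 CPM in DMSO at 4 h, at 5.22, 7.35 and 4.94 CPM with i-BET858 and at 5.45, 7.49 and 4.47 CPM with i-BET151. Every treated library was below every DMSO library, and the inhibitor groups overlapped almost completely. The fall was 3.89-fold with i-BET858 (-1.96 ± 0.23, edgeR adjusted p = 9.81e-05) and 3.94-fold with i-BET151 (-1.98 ± 0.24, edgeR adjusted p = 0.00025). At 24 h SPRY1 stood at 17.0, 17.9 and 25.4 CPM in DMSO, at 7.62, 6.31 and 6.26 CPM with i-BET858 and at 7.66, 9.37 and 12.0 CPM with i-BET151. Both inhibitor groups stayed below DMSO, and all i-BET858 libraries were below all i-BET151 libraries. The fall was 3.07-fold with i-BET858 (-1.62 ± 0.22, edgeR adjusted p = 0.00019) and 2.11-fold with i-BET151 (-1.08 ± 0.22, edgeR adjusted p = 0.0031). Leaving out any single library ended none of the 4 calls.

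SPRY2, which binds the adaptor GRB2 and the ubiquitin ligase CBL, was lower with i-BET858 at 4 h by a smaller factor. SPRY2 (ENSG00000136158, chr13:80335976-80341126, minus strand) stood at 16.5, 23.4 and 20.0 CPM in DMSO, at 9.85, 13 and 10.9 CPM with i-BET858 and at 9.59, 14.3 and 14.1 CPM with i-BET151. Neither inhibitor group overlapped DMSO. The fall with i-BET858 was 1.77-fold (-0.82 ± 0.21, edgeR adjusted p = 0.0105), and the call was lost without replicate 2 of DMSO (edgeR adjusted p = 0.051). The i-BET151 difference of -0.66 ± 0.21 had an edgeR adjusted p of 0.051, and 0.0018 with the replicate block. At 24 h SPRY2 stood at 15.5, 16.2 and 23.7 CPM in DMSO, at 14.0, 12.4 and 16.6 CPM with i-BET858 and at 12.9, 15.1 and 14.1 CPM with i-BET151. Only the i-BET151 libraries were all below DMSO. The differences of -0.41 ± 0.19 with i-BET858 (edgeR adjusted p = 0.11) and -0.43 ± 0.19 with i-BET151 (edgeR adjusted p = 0.11) passed with the block only (edgeR adjusted p = 0.032 and 0.035). Without 1 library they ran from -0.52 to -0.15 with i-BET858 and from -0.54 to -0.18 with i-BET151, and passed in none of these fits.

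SPRY4, a Sprouty gene that is readily induced by growth factors, had a positive fitted difference with i-BET858 and a negative one with i-BET151 at 4 h. SPRY4 (ENSG00000187678, chr5:142310427-142326455, minus strand) stood at 5.16, 13.6 and 13.4 CPM in DMSO, at 12.0, 22.5 and 19.7 CPM with i-BET858 and at 6.98, 10.4 and 9.64 CPM with i-BET151. Replicate 1 was the lowest library of each group, and DMSO overlapped both inhibitor groups. The i-BET858 difference of 0.76 ± 0.35 did not pass the test (edgeR adjusted p = 0.13), but did with the replicate block (0.81 ± 0.17, edgeR adjusted p = 0.0014). Without 1 library it ran from 0.42 to 0.98 and passed in none of these fits. With i-BET151 it was -0.25 ± 0.35 (edgeR adjusted p = 0.69). At 24 h SPRY4 stood at 3.70, 4.98 and 3.95 CPM in DMSO, at 4.55, 4.70 and 6.43 CPM with i-BET858 and at 4.05, 4.17 and 9.72 CPM with i-BET151. All groups overlapped, and replicate 3 of i-BET151 was more than 2-fold above replicates 1 and 2 of its group. Neither difference passed (0.27 ± 0.34 and 0.49 ± 0.34, edgeR adjusted p = 0.56 and 0.31), and the i-BET151 difference was -0.066 without replicate 3 of i-BET151.

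SPRED1 and SPRED2 encode membrane-bound inhibitors of RAS, of which SPRED1 is known to bring neurofibromin to the membrane. SPRED2 (ENSG00000198369, chr2:65310851-65432637, minus strand) stood at 38.2, 41.3 and 52.9 CPM in DMSO at 4 h, at 17.9, 25.7 and 32.8 CPM with i-BET858 and at 26.1, 27 and 30.0 CPM with i-BET151. Neither inhibitor group overlapped DMSO. The fall was 1.73-fold with i-BET858 (-0.79 ± 0.21, edgeR adjusted p = 0.014) and 1.60-fold with i-BET151 (-0.68 ± 0.21, edgeR adjusted p = 0.048). The i-BET858 call was lost without replicate 3 of DMSO (edgeR adjusted p = 0.052). The i-BET151 call was lost in 7 of the 9 fits without 1 library, in which any library but replicates 1 and 3 of i-BET858 was left out, with an adjusted p of up to 0.16, and it passed with the block (edgeR adjusted p = 0.0011). At 24 h SPRED2 stood at 37.2, 35.0 and 40.8 CPM in DMSO, at 26.6, 26.0 and 26.3 CPM with i-BET858 and at 27.7, 27.3 and 35.3 CPM with i-BET151. The i-BET858 libraries lay close together below all others, whilst replicate 3 of i-BET151 overlapped DMSO. The i-BET858 fall was 1.47-fold (-0.56 ± 0.13, edgeR adjusted p = 0.0053), and the i-BET151 difference was -0.35 ± 0.13 (edgeR adjusted p = 0.061, and 0.014 with the block).

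SPRED1 (ENSG00000166068, chr15:38252836-38357249, plus strand) stood at 28.9, 30.3 and 35.9 CPM in DMSO at 4 h, at 15.9, 21.8 and 25.9 CPM with i-BET858 and at 22.3, 21.4 and 31.9 CPM with i-BET151. Replicate 3 was the highest library in each group, and i-BET858 did not overlap DMSO whereas i-BET151 did. The i-BET858 difference was -0.57 ± 0.21 (edgeR adjusted p = 0.059), and it passed with the block (edgeR adjusted p = 0.0013). The i-BET151 difference was -0.33 ± 0.21 (edgeR adjusted p = 0.33, and 0.046 with the block). At 24 h SPRED1 stood at 23.1, 25.6 and 39.3 CPM in DMSO, at 19.8, 17.5 and 24.5 CPM with i-BET858 and at 22.5, 25.8 and 26.8 CPM with i-BET151. Replicate 3 of DMSO stood far above the other libraries, and both inhibitor groups overlapped DMSO. The differences were -0.55 ± 0.21 with i-BET858 (edgeR adjusted p = 0.053, and 0.0042 with the block) and -0.25 ± 0.21 with i-BET151 (edgeR adjusted p = 0.39). Without replicate 3 of DMSO the values were -0.25 with i-BET858 (edgeR adjusted p = 0.25) and 0.041 with i-BET151.

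The inhibitors were then set against each other at the same dose and time, the comparison for which the study sequenced both. At 4 h, DUSP4, DUSP5, DUSP10 and SPRY4 were higher and DUSP8 lower with i-BET858 than with i-BET151 in all 9 pairs of libraries, so 5 of the 10 genes did not overlap, as did 16.3% of all genes. None of the 10 passed edgeR's test over all genes, where 0.971% of all genes were called. The number of genes called rested on single libraries: 167 were called in all, 0 to 2 when 1 library of i-BET858 or replicate 1 or 2 of i-BET151 was left out, 44 without replicate 3 of i-BET151, 32 to 129 without 1 DMSO library, and 0 when only the 2 groups were fitted. An unadjusted p under 0.05 was reached by 5 of the 10 genes (11.9% of all genes), and 3 passed in DESeq2 (5.21%). With the replicate number as a block those same 5 genes passed, against 9.63% of all genes. DUSP5 was 1.56-fold higher with i-BET858 (0.64, 95% interval 0.31 to 0.97, edgeR adjusted p = 0.077, with the block 0.0024). DUSP10 was 1.59-fold higher (0.67, 95% interval 0.35 to 0.99, edgeR adjusted p = 0.058, with the block 0.00375). DUSP4 was 1.91-fold higher (0.93, 95% interval 0.30 to 1.56, edgeR adjusted p = 0.18, with the block 0.0058), and SPRY4 was 2.02-fold higher (1.01, 95% interval 0.24 to 1.78, edgeR adjusted p = 0.24, with the block 0.0030). DUSP8 was 1.74-fold lower (-0.80, 95% interval -1.34 to -0.25, edgeR adjusted p = 0.18, with the block 0.032).

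For SPRY1 the same comparison at 4 h gave 0.018, with a 95% interval of -0.49 to 0.53, and i-BET858 was higher in 4 of 9 pairs of libraries. The interval is not adjusted for the number of genes. SPRY2 (-0.16, 95% interval -0.62 to 0.29), SPRED1 (-0.24, -0.70 to 0.22) and SPRED2 (-0.11, -0.57 to 0.34) also had intervals that included 0, and DUSP6 (0.44, -0.50 to 1.38) had the widest. At 24 h none of the 10 genes passed, against 0.210% of all genes, whilst 2 had an unadjusted p under 0.05, which is near the 11.4% of all genes that did, and none passed in DESeq2 (2.97% of all genes) or with the block (4.37%). The 36 genes called in all became 1 to 9 without any 1 library other than replicate 3 of DMSO, without which they were 110. The 2 with an unadjusted p under 0.05 were SPRY1 and DUSP10. SPRY1 was lower with i-BET858 in all 9 pairs (-0.54, 95% interval -1.02 to -0.059, edgeR adjusted p = 0.37). DUSP10 was higher in 8 of 9 (0.40, 95% interval 0.014 to 0.79, edgeR adjusted p = 0.42). The inhibitor groups did not overlap at 24 h in 2 of the 10 genes, SPRY1 and SPRED2, near the 18.8% of all genes. The DUSP5 difference at 24 h was 0.14 (95% interval -0.27 to 0.54).

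**Figure D4:**
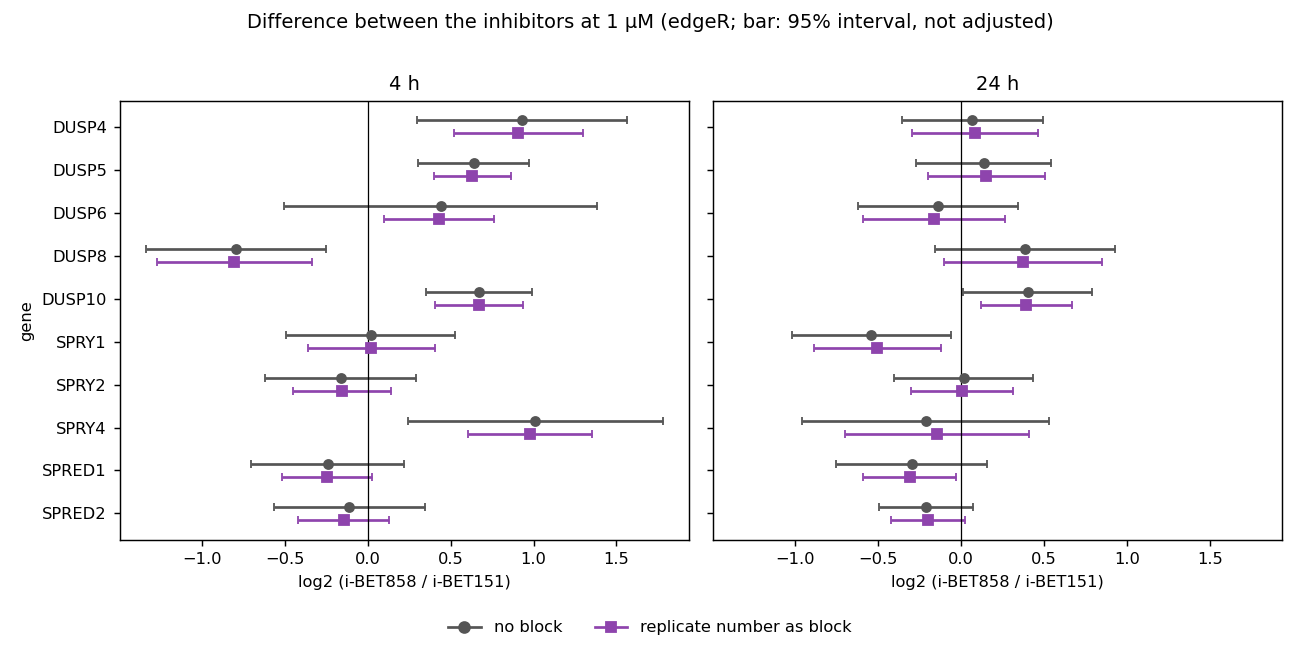
Difference between i-BET858 and i-BET151 as log2 ratio (horizontal axis) for each gene at 4 and 24 h, without and with the replicate number as a block; bars are 95% intervals, not adjusted for the number of genes. At 4 h DUSP4, DUSP5, DUSP10 and SPRY4 lie right of 0 and DUSP8 left of 0 in both fits, whilst SPRY1 lies at 0.018.

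The effect of i-BET858 differed between 4 and 24 h in 3 of the 10 genes, tested as the interaction of drug and time over all 18 libraries. This count was near the background, since 27.2% of all 18154 genes were called. The DUSP8 effect was less negative at 24 h than at 4 h, by 1.46 ± 0.34 on the log2 scale (edgeR adjusted p = 0.0041), and the DUSP10 effect was smaller at 24 h, by -0.85 ± 0.22 (edgeR adjusted p = 0.0090). The DUSP5 effect was also smaller at 24 h (-0.76 ± 0.25, edgeR adjusted p = 0.028), and this call was lost in 7 fits without 1 library, those without replicate 1 or 3 of DMSO, or 1 or 2 of i-BET858 at 4 h, and without replicate 2 of DMSO, or 1 or 2 of i-BET858 at 24 h, with an adjusted p of up to 0.088. With the block, the same 3 genes passed (38.3% of all genes), again near the background. Only the DUSP8 change was at least 2-fold (15.1% of all genes). For SPRY1 the change of effect was 0.39 ± 0.32 (edgeR adjusted p = 0.42), and for DUSP4 it was -0.54 ± 0.36 (edgeR adjusted p = 0.31).

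For i-BET151 none of the 10 changes of effect passed in edgeR, where 13.8% of all genes were called. In DESeq2, 2 passed (20.0% of all genes). An unadjusted p under 0.05 in edgeR was reached by 2 (27.4% of all genes), which also passed with the block (25.2% of all genes). These counts were no higher than the background. They were SPRY1, whose fall was smaller at 24 h (0.92 ± 0.32, edgeR adjusted p = 0.065, with the block 0.022), and DUSP10 (-0.60 ± 0.23, edgeR adjusted p = 0.088, with the block 0.023). Whether the change with time differed between the inhibitors was not tested.

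In DMSO alone, none of the 10 genes passed between 24 and 4 h, against 0.0386% of all genes, whilst 3 had an unadjusted p under 0.05 (9.17% of all genes) and 2 passed in DESeq2 (1.28%). All 10 fitted differences were negative, as small as -0.047 for DUSP8. With the block (2.07% of all genes), SPRY4 and DUSP5 were lower at 24 h (edgeR adjusted p = 0.014 and 0.032). Without it the SPRY4 difference was -1.35 ± 0.37 (edgeR adjusted p = 0.21) and the DUSP5 difference -0.68 ± 0.18 (edgeR adjusted p = 0.17). With the replicate number taken as a separate block at each time, an alternative chosen after the data were seen, neither passed (edgeR adjusted p = 0.19 and 0.095). The 2 time points were deposited as separate count tables, and a difference between tables cannot be told apart from one of time.

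Other genes of the pathway, from lists written with earlier results of these data known, were read beside the 10. Of 7 further phosphatases and Sprouty or Spred genes, 6 were measured well enough to be tested. With i-BET858 at 4 h, 3 rose and 2 fell, where 14.5% of all genes were called higher and 16.3% lower, and with i-BET151 2 rose and 2 fell, where these shares were 7.81% and 8.43%. With i-BET858, DUSP7, another ERK phosphatase, rose 2.73-fold (1.45 ± 0.20, edgeR adjusted p = 0.00022) and DUSP2 3.28-fold from a mean of 1.52 CPM (edgeR adjusted p = 0.0086), whilst SPRED3 fell 2.65-fold (edgeR adjusted p = 0.0018). With i-BET151, DUSP7 rose 1.86-fold and SPRED3 fell 2.30-fold (edgeR adjusted p = 0.0090 and 0.0089). At 24 h none rose and 3 fell with either inhibitor, against shares of all genes called higher and lower of 20.5% and 21.3% for i-BET858, and of 17.2% and 16.6% for i-BET151. With i-BET858 these were DUSP9, an ERK phosphatase that went from 11.3 to 1.16 CPM (-3.31 ± 0.65, edgeR adjusted p = 0.0020), SPRED3, from 9.59 to 1.75 CPM (-2.49 ± 0.30, edgeR adjusted p = 9.1e-05) and DUSP16, a JNK phosphatase, from 77.6 to 55.7 CPM (-0.52 ± 0.11, edgeR adjusted p = 0.0041). The median log2 fold change of these 6 genes with i-BET858 was 0.58 at 4 h and -1.16 at 24 h, beside 0.023 and -0.012 over all genes. With the replicate block, 1 of the 6 rose and 3 fell with i-BET858 at 24 h (52.0% of all genes in either direction).

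Of 12 other genes transcribed downstream of ERK, 4 rose and 2 fell with i-BET858 at 4 h (14.5% and 16.3% of all genes). At 24 h 3 rose and 3 fell (20.5% and 21.3%), so that without the block the 24 h shares were near the background. These numbers were the same with i-BET151, where 7.81% and 8.43% of all genes were called at 4 h and 17.2% and 16.6% at 24 h. With the block at 4 h, 7 rose and 3 fell with i-BET858 (45.4% of all genes called in either direction), and 5 rose and 3 fell with i-BET151 (32.7%). With the block at 24 h, 4 rose and 5 fell with i-BET858 (52.0%), and 4 rose and 4 fell with i-BET151 (45.9%). With i-BET858 at 4 h, PHLDA1 rose 7.57-fold (2.92 ± 0.38, edgeR adjusted p = 0.00018), the ETS factor gene ETV5 4.77-fold (2.25 ± 0.18, edgeR adjusted p = 7.49e-06) and the AP-1 gene FOS 4.33-fold (2.11 ± 0.19, edgeR adjusted p = 1.47e-05). With i-BET151 these rises were 3.69-fold, 3.55-fold and 2.42-fold (edgeR adjusted p = 0.0059, 8.36e-05 and 0.00095). After 24 h of i-BET858, ETV5 and FOS were still 3.44-fold and 3.41-fold higher, whereas ETV4, a close relative of ETV5, fell 4.52-fold (-2.18 ± 0.14, edgeR adjusted p = 1.51e-06). After 24 h of i-BET151, ETV5 and FOS were 2.64-fold and 2.66-fold higher and ETV4 3.01-fold lower (edgeR adjusted p = 0.00012, 0.00031 and 1.69e-05). Of 22 genes of the core from receptor adaptors to ERK, 4 rose and 7 fell with i-BET858 at 4 h (14.5% and 16.3% of all genes), and 9 rose and 4 fell at 24 h (20.5% and 21.3%). Without the block, the share that rose at 4 h and the share that fell at 24 h were near the background. With the block, 4 rose and 9 fell with i-BET858 at 4 h (45.4% of all genes in either direction), and 11 rose and 5 fell at 24 h (52.0%). At 24 h MAPK3, which encodes the kinase ERK1, was 4.06-fold lower with i-BET858 (-2.02 ± 0.19, edgeR adjusted p = 1.93e-05). With i-BET151, 1 rose and 3 fell at 4 h (7.81% and 8.43% of all genes), or 5 and 6 with the block (32.7% of all genes in either direction), and 10 rose and 1 fell at 24 h (17.2% and 16.6%). The median log2 fold change of these 22 with i-BET858 was -0.048 at 4 h and 0.26 at 24 h.

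Over the 18 libraries, the genes whose centred log2 CPM profile was nearest to that of a member were listed by the root mean square difference, out of 12706 genes whose average log2 CPM was 1 or more. DUSP5 was followed most closely by FAM107B (0.20 on the log2 scale, where the spread of DUSP5 itself was 0.74), ULBP3 (0.20) and NFKBIZ (0.21). For DUSP10 they were HNRNPAB (0.18), ALAS1 (0.19) and POR (0.21), and for SPRY1 ZNF689 (0.31), TGIF2 (0.33) and DOK7 (0.33). The member with the least close neighbours was SPRY4, with IL1RAP at 0.44 and TNFAIP3 at 0.45. The 18 points share their groups and replicate numbers, so likeness over them is a description only.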

How the data were processed

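Total RNA was poly-A enriched and sequenced as paired-end reads. Per the study's methods, read quality was inspected with FastQC and reads were mapped with STAR (GRCh38), and the authors deposited the raw counts that STAR gave for every gene, unnormalised, in 1 table for each time point. The annotation, program versions and strand setting are not given in the sources used here. The tables were joined by identifier, and groups and replicate numbers were taken from the sample titles. Columns carry the treatment and replicate number alone, so the time point of a library rests on the name of its table. Of 58825 genes, 99.4% matched GENCODE 44, which gave symbols, positions and exon lengths. No column was left unmapped.

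The 9 libraries of a time point, all 3 treatments together, entered 1 model in edgeR 4.0.16 (R 4.3.3) with TMM factors, filterByExpr, the two-sided quasi-likelihood F-test and Benjamini-Hochberg adjustment over all genes. The change of effect with time and the DMSO comparison came from 1 fit of 18 libraries. DESeq2 1.42.0, the tool of the study's methods, was an alternative, as were other scalings, filters, the 2 groups alone, a fold of at least 2, the replicate block, and leaving out each library or replicate 3. A standard error is the size of the log2 fold change, taken before edgeR's default prior count is added, over the root of F. The printed log2 fold changes, on which the intervals are centred, include that prior count. The script was tested on simulated data without the block, with 50 changed genes for each size of change. For i-BET858 against DMSO, edgeR recovered 5 changes of 1.5-fold, 28 of 2-fold and 47 of 4-fold at 4 h. At 24 h it recovered 11, 30 and 47, and for the change of effect with time 1, 18 and 39. A difference of such a size that did not pass is thus not shown to be absent. CPM were scaled with TMM factors over 18 libraries, and log2 CPM used a prior count of 2.

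Replicate numbers in the titles were taken to pair libraries, since after removal of group means all same-number correlations exceeded 0.1 (0.141 to 0.365 at 4 h, 0.161 to 0.352 at 24 h, across genes). Pairs of different numbers ranged from -0.341 to 0.233 (median -0.225) at 4 h and from -0.329 to 0.326 (median -0.247) at 24 h, so the ranges overlapped. Replicates differed by 3.28 to 48.4 times counting error (chi-square per degree of freedom). The members, the lists and the rule for named genes (all members, the 3 called genes of a list with the largest change, the 3 nearest profiles) were chosen with earlier results of these data known. A gene that this rule names is not reported here.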

Additional observations from a re-analysis of the deposited data

Results flagged for a closer look

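The effect of i-BET858 differed between 4 and 24 h, by the interaction of drug and time in edgeR, in 3 of the 10 genes. This count was near the background, 27.2% of all 18154 genes tested. The difference of the effects (24 h minus 4 h, log2) was 1.46 for DUSP8, -0.85 for DUSP10 and -0.76 for DUSP5. In the separate fits, the log2 fold changes against DMSO at 4 and 24 h were -1.86 and -0.44 for DUSP8, 1.12 and 0.23 for DUSP10, and 1.52 and 0.73 for DUSP5. Of the fits that keep all libraries, only the one with no filter on low counts ended one of these calls, that of DUSP10 (edgeR adjusted p = 0.051), whilst the DUSP5 call was lost in 7 of the fits without 1 library.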

How the results depend on the processing

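The direction of every called change of a member held under all alternatives run. Calls were lost, apart from the fits without 1 library given above, for DUSP4 with i-BET858 at 24 h under total library size (0.50) and with no filter (0.62), for DUSP5 with i-BET151 at 24 h with only the groups compared (0.60) and without replicate 3 (0.23), for the change of the DUSP10 effect of i-BET858 with no filter (-0.81), and for SPRED2 with i-BET151 at 4 h under DESeq2's size factors (-0.67). The cause was not tested. The replicate block moved the number of members called from 4 to 7 (i-BET151 at 4 h), from 3 to 7 (i-BET151 at 24 h), from 0 to 5 (between inhibitors at 4 h), from 0 to 2 (change of the i-BET151 effect, also 2 with the block within each time, 28.4% of all genes) and from 0 to 2 (DMSO over time), and it ended no call. A fold of at least 2 left 2 and 1 members for i-BET151 at 4 and 24 h, 1 for i-BET858 at 24 h and 1 for the change of the i-BET858 effect. Between inhibitors at 4 h, 3 members passed with no filter (1.60% of all genes), 1 with at least 10 counts in every library (1.60%), 3 in DESeq2 (5.21%) and 2 without replicate 3 (2.29%), and at 24 h 1 passed without replicate 3 (7.29%). For the change of the i-BET151 effect, 1 passed with at least 10 counts (19.3%), 2 in DESeq2 (20.0%) and 1 without replicate 3 (26.3%), and for DMSO over time 2 passed with no filter (0.461%) and 2 in DESeq2 (1.28%). Without 1 library, the counts ran from 2 to 4 (i-BET151 at 4 h), from 1 to 3 (i-BET151 at 24 h) and from 0 to 1 (change of the i-BET151 effect). The shares of all genes called ran from 9.44% to 18.3%, from 23.8% to 35.1% and from 8.45% to 14.3% in the same fits. Against DMSO, 2 members were called for i-BET151 at 4 h without replicate 3 of DMSO (10.9% of all genes) or replicate 1 of i-BET151 (9.60%). At 24 h 1 was called without replicate 1 of DMSO (26.5%).

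Uncalled values changed sign in 42 fits over 19 of 90 results. Without replicate 3, log2 values became -0.056 (DUSP4), 0.036 (DUSP6), -0.070 (SPRY2) and 0.18 (SPRY4) between inhibitors at 24 h, -0.030 (SPRY1) between them at 4 h, -0.11 (SPRY4, i-BET151 at 24 h) and 0.19 (DUSP8, DMSO over time). Under total library size they became -0.086 (SPRY1, inhibitors at 4 h), -0.044 (SPRY2, inhibitors at 24 h) and 0.00075 (DUSP8, DMSO over time). With the block within each time, DMSO over time gave 0.056 (DUSP6), 0.19 (DUSP8) and 0.030 (SPRY2), and with at least 10 counts the change of the i-BET858 effect gave -0.020 (SPRED1). Without 1 library, values ran from -0.020 to 0.53 (DUSP4) and -0.32 to 0.61 (DUSP6) for i-BET151 at 4 h, from -0.066 to 0.71 (SPRY4) and -0.40 to 0.041 (SPRED1) for i-BET151 at 24 h, from -0.035 to 0.89 (DUSP6), -0.18 to 0.24 (SPRY1) and -0.34 to 0.086 (SPRED2) between inhibitors at 4 h, and from -0.030 to 0.26 (DUSP4), -0.10 to 0.11 (SPRY2) and -0.42 to 0.35 (SPRY4) at 24 h. For changes of effect they ran from -0.65 to 0.30 (DUSP6) and -0.11 to 0.34 (SPRED1) with i-BET858 and from -0.095 to 0.83 (DUSP6) and -0.038 to 0.37 (SPRED1) with i-BET151, and for DMSO over time from -0.16 to 0.13 (DUSP8), -0.33 to 0.020 (SPRY2) and -0.38 to 0.030 (SPRED1). Total library size moved the median over all genes with i-BET858 at 4 h from 0.023 to -0.14 and the genes called from 2497 higher and 2806 lower to 1746 and 3718, and those between inhibitors from 71 and 96 to 55 and 276 at 4 h and from 16 and 20 to 15 and 41 at 24 h. No member had under 49 counts in a library, and calls at another depth were not tested. Leaving out 1 library also brought 5 uncalled values past the threshold, beside that of DUSP8 with i-BET858 at 24 h (edgeR adjusted p = 0.027 without replicate 3 of i-BET858): SPRED1 with i-BET858 at 4 h without replicate 3 of i-BET858 or of i-BET151 (adjusted p from 0.024) and at 24 h without replicate 1 of DMSO or 3 of i-BET858 (from 0.026), DUSP4 and SPRED2 with i-BET151 at 24 h without replicate 3 of i-BET151 (0.031 and 0.0085), and the change of the SPRY1 effect of i-BET151 without replicate 2 of i-BET151 at 4 h, or 3 of DMSO or 1 of i-BET151 at 24 h (from 0.034).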

Other observations

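Receptor genes and the kinases of the JNK and p38 branches were read in the same fits, from lists chosen with earlier results of these data known. Of 10 growth factor receptor genes, 5 rose and none fell with i-BET858 at 4 h, and 4 rose and none fell with i-BET151, where 14.5% and 7.81% of all genes were called higher and 16.3% and 8.43% lower. With the replicate block 5 rose and 2 fell with either inhibitor, where 45.4% and 32.7% of all genes were called in either direction. FGFR3, a fibroblast growth factor receptor gene, went from a mean of 20.3 CPM in DMSO to 143 CPM with i-BET858 (log2 fold change 2.82 ± 0.37 SE, edgeR adjusted p = 0.00018) and to 95.1 CPM with i-BET151 (2.22 ± 0.36, edgeR adjusted p = 0.0018). FGFR1 went from 47.2 to 129 and 114 CPM (1.46 ± 0.17 and 1.27 ± 0.17, edgeR adjusted p = 7.62e-05 and 0.00049). At 24 h both remained higher, FGFR3 by 1.91 and FGFR1 by 1.79 with i-BET858 on the log2 scale, whilst MET, the receptor of hepatocyte growth factor, fell 1.86-fold (-0.89 ± 0.27, edgeR adjusted p = 0.022). In all, 5 of the 10 receptor genes rose and 3 fell with i-BET858 at 24 h, where 20.5% and 21.3% of all genes were called higher and lower. With the block 5 rose and 4 fell (52.0% of all genes in either direction).

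Of 11 kinase genes of the JNK and p38 branches, 1 rose and 2 fell with i-BET858 at 4 h (14.5% and 16.3% of all genes), or 2 and 3 with the block (45.4% in either direction), which is near the background. At 24 h 4 rose and 3 fell (20.5% and 21.3%). MAP2K3, which encodes a kinase that activates p38, rose 3.13-fold at 4 h, from 136 to 424 CPM (1.65 ± 0.13, edgeR adjusted p = 5.12e-06). At 24 h the genes of the p38 family members MAPK13, MAPK11 and MAPK12 fell 7.81-fold, 3.66-fold and 2.92-fold with i-BET858 (edgeR adjusted p = 8.28e-06, 7.47e-05 and 0.040). MAPK12 was low, at a mean of 2.64 CPM in DMSO and 0.926 CPM with i-BET858, and its exons overlap those of HDAC10 on the same strand. The mean level of MAPK14, the fourth and most abundant p38 gene, was 65.6 CPM in DMSO and 79.8 CPM with i-BET858 at 24 h, whereas at 4 h it fell from 65.8 to 43.0 CPM (-0.61 ± 0.19, edgeR adjusted p = 0.029). MAPK13 fell from 19.8 to 2.61 CPM and had stood at 18.1 CPM in DMSO and 16.5 CPM with i-BET858 at 4 h. The change of the MAPK13 effect between 4 and 24 h was -2.79 ± 0.36 (edgeR adjusted p = 2.83e-05).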
